A study of Oryza sativa Japonica Group with 18 samples.

Results

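Transcript levels of 4 metal transporter genes of rice, YSL16, VIT1.2, ZIP8 and MTP4, were followed over root and shoot of 3 genotypes. They are 4 of 17905 genes that could be paired with a probe set of the array, and 5 probe sets report on them, since MTP4 has a pair. The genes were chosen by name with earlier results of these arrays known, from changes of the mutants against wild type, so those changes are given as a description without a test. The plants were Oryza sativa Japonica, cultivar Nipponbare, as wild type (WT), as a gi knockout and as a pho2 knockout in that background, with 3 arrays for each genotype and tissue and 18 arrays in all. All groups were 21 days old, after 2 days of germination in tap water and 19 days in hydroponic solution with sufficient phosphate, at 30 °C by day and 22 °C by night under a 12 h photoperiod. The labels name no allele, number of mutant lines or hour of harvest. They also leave unsaid whether replicates were separate plants, so a p-value here covers the spread among these arrays alone, and that spread may be technical. GI encodes GIGANTEA, a nuclear protein of the circadian clock, and PHO2 encodes an enzyme of the ubiquitin pathway that holds back phosphate uptake.

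Plants take up zinc, manganese, copper and iron through membrane proteins of several families and keep the free ions low in the cytosol. ZIP proteins carry zinc, iron and related ions into the cytosol, while proteins of the MTP family, also called cation diffusion facilitators, and of the VIT family carry metals out of it, many of them into the vacuole. YSL proteins move metals bound to nicotianamine or to phytosiderophores, small chelators with which grasses take up iron from the soil and move metals through the vessels. Among the 4 genes, rice YSL16 is known as a carrier of copper bound to nicotianamine, VIT1.2 belongs to the vacuolar iron transporters, ZIP8 is a zinc transporter of the ZIP family, and MTP4 belongs to the MTP family. The arrays report transcripts, so the names stand for families and not for measured transport.

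The unit throughout is the signal of a probe set, an intensity on a linear scale that was brought to the same trimmed mean on every array (500.1). Array medians lay between 52.3 and 70.2 signal units. Levels of different probe sets are not comparable with each other, because each binds its transcript with its own strength. A log2 change is the first group less the second on log2(signal + 16), a scale that understates changes of dim probe sets. GI had a signal of 1.36 to 2.19 on the gi root arrays and 5.43 to 44.6 on the gi shoot arrays, against 7007 to 7393 and 9868 to 11520.5 in WT root and WT shoot, while PHO2 was not analysed here. Tissue labels were checked against markers: 4 of 4 root markers and 6 of 7 shoot markers were apart between WT tissues in the labelled direction, the exception being RBCS1, which was dim in both. The summed signal of the 7 shoot markers ranged from 178144 to 214843 in WT shoot, from 165009 to 205972 in gi shoot and from 125740 to 158734 in pho2 shoot, and no pho2 shoot array reached the WT range. The 4 root markers summed to 2173 to 2415 in WT shoot, 1344 to 2019 in gi shoot and 969 to 1023 in pho2 shoot. In root, the 7 shoot markers summed to 6920 to 7668 in WT, 11106 to 16758 in gi and 6998 to 13653 in pho2. The 4 root markers summed there to 31739 to 34867, 35388 to 38140 and 33010 to 37864. Both sums were thus higher in gi root than in WT root without overlap, but not every marker was. CAB2R made up most of the shoot marker sum in root (mean 6607 in WT, 12137 in gi). PSAG went the other way without overlap (322 to 442 in WT root, 211 to 243 in gi root). The means of RBCS1 and of root marker CASP1 were lower in gi root too, with overlapping arrays. What this means for the root changes was not tested.

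The 9 hybridisation controls, bacterial and phage transcripts added to every sample, also differed between groups. In pho2 shoot all 9 lay below WT shoot on every array, with log2 differences of -0.64 to -0.35 and a median of -0.50. In gi shoot their difference from WT ran from -0.21 to -0.06, in pho2 root from -0.40 to -0.0049, and in gi root from -0.18 to 0.13. Each shoot change below has to be read beside these ranges, and their part in the changes was not tested. When arrays were scaled to these controls, a choice made after seeing the data, the median of all probe sets moved to 0.51 in pho2 shoot, 0.19 in gi shoot and 1.35 for WT root against WT shoot. In bulk tissue, fewer cells of a type and less transcript per cell cannot be told apart.

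YSL16 was a bright transcript in both tissues, at or above the 89.6th percentile of probe sets on every array. In shoot, its signal was 2497, 3203 and 3038 on the WT arrays, 2762, 2416 and 2163 on the gi arrays, and 1909, 1761 and 2090.0 on the pho2 arrays. All pho2 arrays lay below all WT arrays and below all gi arrays, while gi and WT overlapped. The log2 change from WT was -0.59 in pho2 and -0.25 in gi (both SE 0.115). The pho2 value lies inside the range of the hybridisation controls, and after scaling to them it was -0.08. The gi value ran from -0.36 to -0.04 over 18 alternative settings, that scaling among them.

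In root, the YSL16 signal was 3019, 2419.7 and 2792 in WT, 2268, 2146 and 2349 in gi, and 2684, 3121 and 2594 in pho2. The 3 gi arrays were the lowest of the 9, with a log2 change of -0.28 (SE 0.096), and the pho2 arrays overlapped WT (0.03, SE 0.096). Arrays of pho2 were thus apart from WT in shoot and those of gi in root, and the 6 means ran from 1920.0 ± 165 (pho2 shoot, SD, n = 3) to 2913 ± 369 (WT shoot). In the order of the 6 means, the only neighbours whose arrays did not overlap were the lowest pair, gi root (2255 ± 102) and pho2 shoot.

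ZIP8 was higher in shoot than in root of WT. Its shoot signal was 733, 1189 and 1325 in WT, 232, 282 and 479 in gi, and 1047, 485 and 565 in pho2. Every gi array lay below every WT array and below every pho2 array, whereas pho2 and WT overlapped through WT replicate 1 and pho2 replicate 1. The WT mean (1082 ± 310, n = 3) was 3.27-fold that of gi (331 ± 130, n = 3), a log2 change of -1.68 (SE 0.313), well outside the range of the hybridisation controls. The change in pho2 was -0.66 (SE 0.313), and -0.14 after scaling to the controls.

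In root, ZIP8 gave 197, 220.4 and 359.9 in WT, 152, 160.45 and 191 in gi, and 257, 225 and 292 in pho2. Here too the gi arrays were the 3 lowest (-0.54, SE 0.205) and pho2 overlapped WT (0.03, SE 0.205). The gi arrays were thus the lowest for ZIP8 in either tissue, and gi shoot overlapped WT root.

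VIT1.2 showed the widest range of the 4 genes among shoot arrays. Its shoot signal was 829, 633 and 194 in WT, 2948, 4386 and 3368 in gi, and 2407, 295 and 755 in pho2. All gi arrays lay above all WT and all pho2 arrays, and pho2 overlapped WT because replicate 1 alone was high. The mean in gi shoot (3567 ± 740, n = 3) was 6.46-fold that of WT (552 ± 325, n = 3), a log2 change of 2.86 (SE 0.624), which ran from 2.25 to 3.26 over 18 alternative settings. In pho2 shoot the change was 0.78 (SE 0.624), and it was 0.01 without pho2 shoot replicate 1.

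In root, the VIT1.2 signal was high in every genotype: 3235, 3588 and 2199 in WT, 3132, 3411 and 1759 in gi, and 3214, 3918 and 2644 in pho2. The 3 genotypes overlapped, with changes of -0.15 in gi and 0.13 in pho2 (both SE 0.257), and replicate 3 was the lowest array of each. The level in gi shoot overlapped that in gi root, so VIT1.2 was low in the shoots of WT and, on 2 of 3 arrays, of pho2, and high elsewhere.

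**Figure D1:**
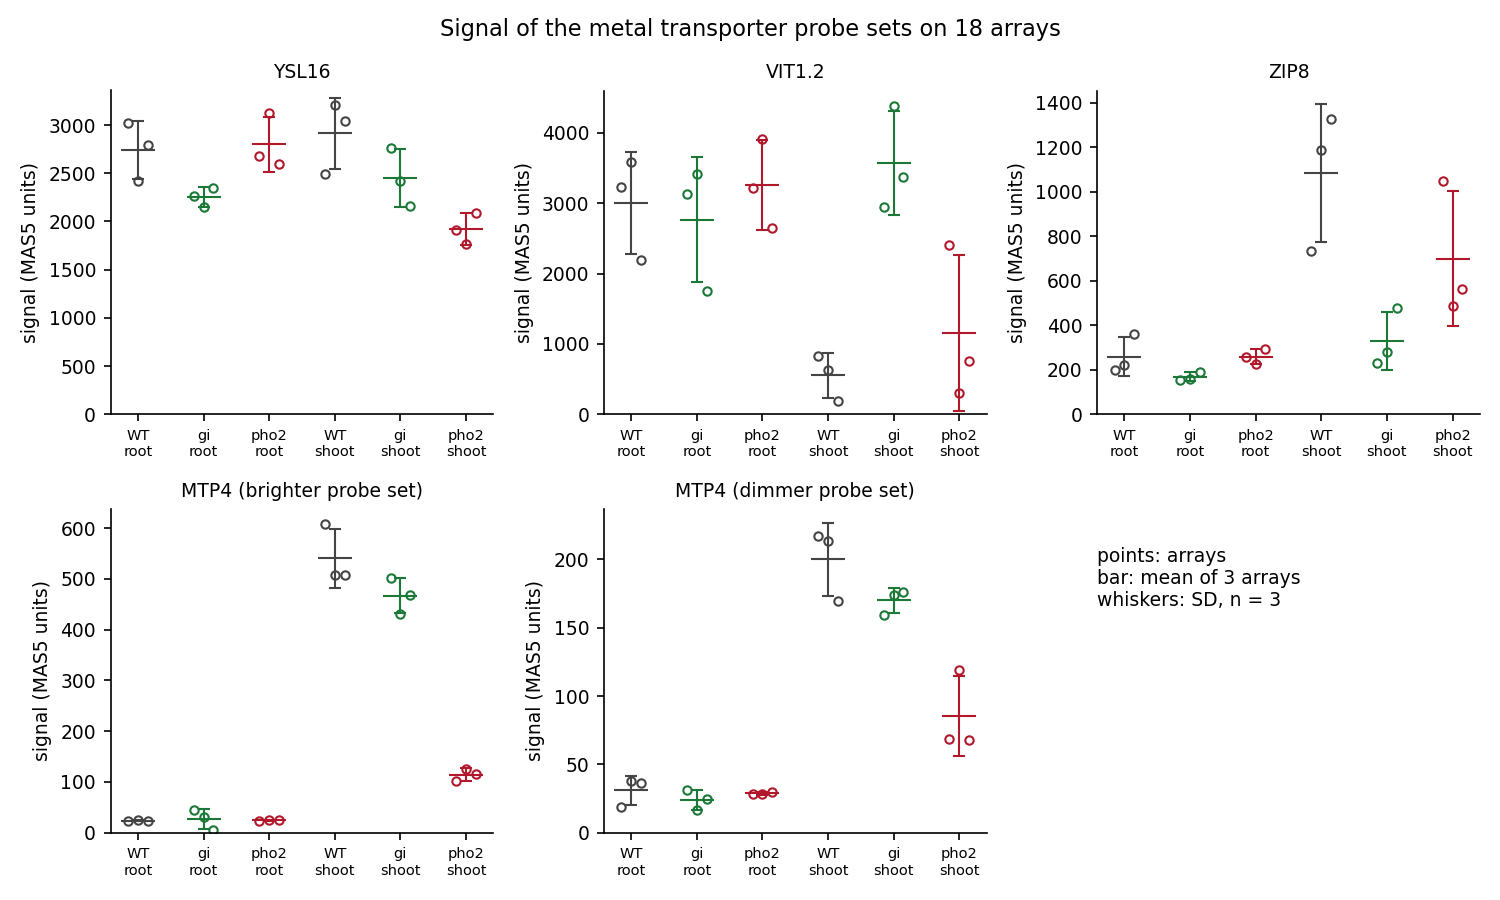
Signal (linear scale, from 0) of the 5 probe sets of YSL16, VIT1.2, ZIP8 and MTP4 in WT, gi and pho2 root and shoot; points are arrays, the bar is the mean and the whiskers are the SD of 3 arrays. VIT1.2 is high in gi shoot, ZIP8 is low there, and both MTP4 probe sets are low in pho2 shoot and near the floor in root.

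MTP4 stood apart in the pho2 shoots. On its brighter probe set, the shoot signal was 607, 507 and 507 in WT, 501, 432 and 467 in gi, and 101, 126 and 115 in pho2. The pho2 arrays were far below both other genotypes, and the gi arrays were just below the lowest WT array. The WT mean (540.4 ± 57.96, n = 3) was 4.73-fold that of pho2 (114 ± 12.4, n = 3), a log2 change of -2.09 (SE 0.146), and -1.58 after scaling to the hybridisation controls. In gi the change was -0.20 (SE 0.146), inside the range of those controls, and 0.01 after scaling to them.

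The dimmer MTP4 probe set gave 217, 213 and 169.6 in WT shoot, 159.7, 174 and 176 in gi shoot, and 68.7, 119 and 67.9 in pho2 shoot. It placed the pho2 arrays below all others too, with a smaller log2 change of -1.12 (SE 0.235), and -0.61 after scaling to the hybridisation controls, while gi overlapped WT (-0.21, SE 0.235). Over the 18 arrays, less the mean of their tissue, both probe sets correlated at r = 0.81, as a description of arrays that share groups. That value includes the root arrays, where both were dim, and the shoot change on which MTP4 was chosen. The shoot markers were lower in pho2 shoot as well, as given above, and whether this touches MTP4 was not tested.

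In root, MTP4 was dim on both probe sets. The brighter one read 22.6, 24.4 and 23.4 in WT, 44.1, 31.9 and 5.22 in gi, and 22.97, 25.6 and 24.4 in pho2. The dimmer one read 18.7, 37.8 and 36.6 in WT, 31.0, 16.6 and 24.6 in gi, and 28.02, 28.3 and 29.9 in pho2. All of these lie below the array medians, both probe sets fell under the filter on low signal in root, and the groups overlapped, so no root change of MTP4 was measurable on these arrays.

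**Figure D2:**
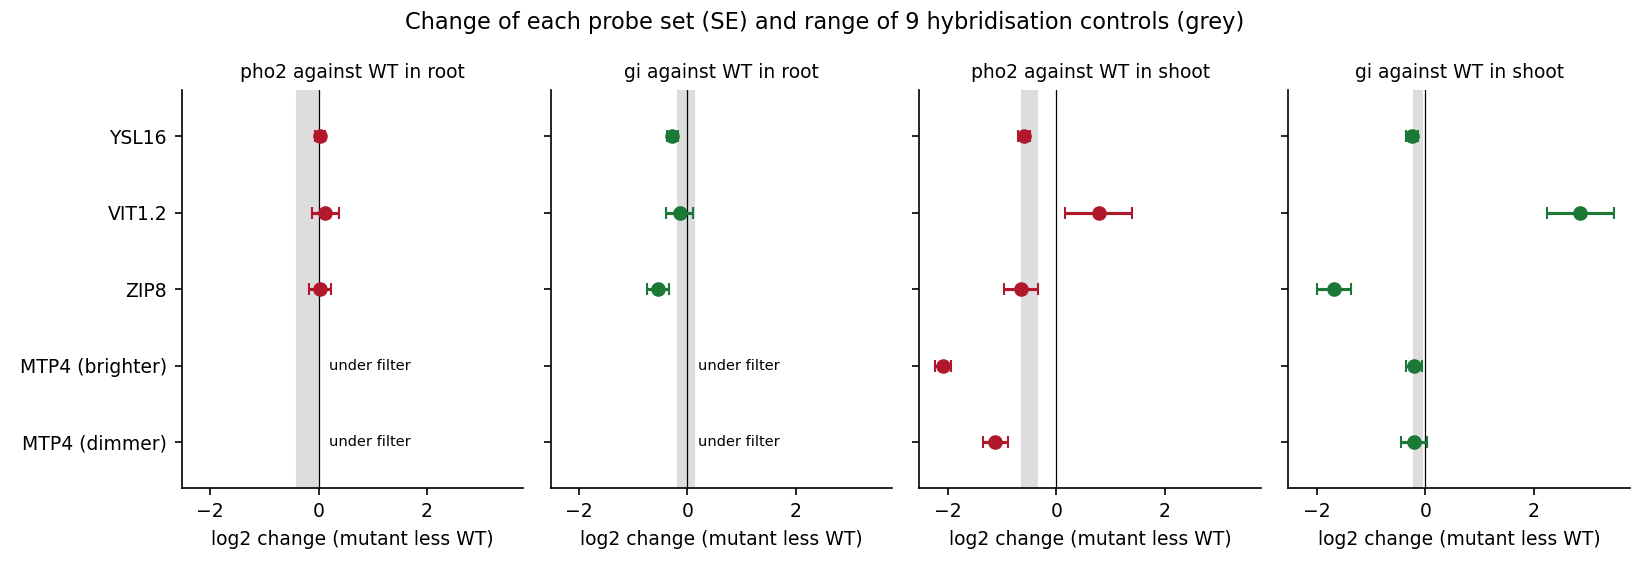
Log2 change of each mutant against WT with its SE for the 5 probe sets, by tissue; the grey band is the range of the 9 hybridisation controls in the same comparison, and probe sets under the filter have no point. VIT1.2 and ZIP8 in gi shoot and MTP4 in pho2 shoot lie outside the band, and YSL16 in pho2 shoot lies inside it.

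Taking pho2 directly against gi in shoot, VIT1.2 was lower in pho2 by a log2 change of -2.08 (SE 0.624), MTP4 by -1.89 (SE 0.146) on the brighter and -0.91 (SE 0.235) on the dimmer probe set, and YSL16 by -0.34 (SE 0.115). ZIP8 was higher in pho2 than in gi by 1.03 (SE 0.313). In each of these comparisons the 3 pho2 arrays did not overlap the 3 gi arrays. Both mutants were set against the same WT arrays, so their changes from WT are not independent of each other.

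By the call rule used for all probe sets, a limma adjusted p under 0.05, 3 of 5 probe sets of the 4 genes were lower in pho2 shoot (YSL16 and both of MTP4), where 28.6% of 34355 probe sets tested were called, 14.4% higher and 14.2% lower. In gi shoot 1 was higher (VIT1.2) and 1 lower (ZIP8), where 17.5% were called, 8.98% higher and 8.56% lower. The genes were chosen on these contrasts, so nothing is read from those counts. The change in root less that in shoot was 0.62 (SE 0.159) for YSL16 in pho2, and -3.01 (SE 0.797) for VIT1.2 and 1.14 (SE 0.428) for ZIP8 in gi, again as a description. On the scale of the hybridisation controls, the median of this difference over all probe sets was -0.46 in pho2 and -0.22 in gi.

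The difference between WT root and WT shoot was not used in choosing the genes and was tested, although it shares the WT shoot arrays with the changes above. A choice on those changes favours low WT shoot values for VIT1.2 and high ones for ZIP8. Both directions are those called below, so the p-values are not independent of the choice. Of the 3 probe sets that passed the filter in both tissues, 2 were called, 1 higher and 1 lower in root, where 71.0% of all probe sets were called, 39.1% higher and 31.8% lower. VIT1.2 was higher in root by 2.61 (SE 0.563, limma adjusted p = 0.000497), 3007 ± 722 against 552 ± 325 signal units, and all root arrays lay above all shoot arrays. ZIP8 was lower in root, 259 ± 88.2 against 1082 ± 310 signal units, a 4.18-fold ratio of the means (SE 0.303 on the log2 scale, limma adjusted p = 1.24e-05).

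MTP4 passed the filter through the shoot arrays alone, so its difference between tissues is given as levels, without a test. Its brighter probe set read 23.5 ± 0.93 in WT root and 540.4 ± 57.96 in WT shoot, and its dimmer one 31.0 ± 10.7 and 200.02 ± 26.4, with no overlap on either. YSL16 was not called (-0.08, SE 0.113, limma adjusted p = 0.522), with overlapping arrays. The hybridisation controls were lower in WT root than in WT shoot, with log2 differences of -4.84 to -0.85, and tissue and array processing cannot be told apart in this comparison. After scaling to them the differences were 3.86 for VIT1.2, -0.75 for ZIP8, both still called, and YSL16 turned to 1.17 and was called.

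**Figure D3:**
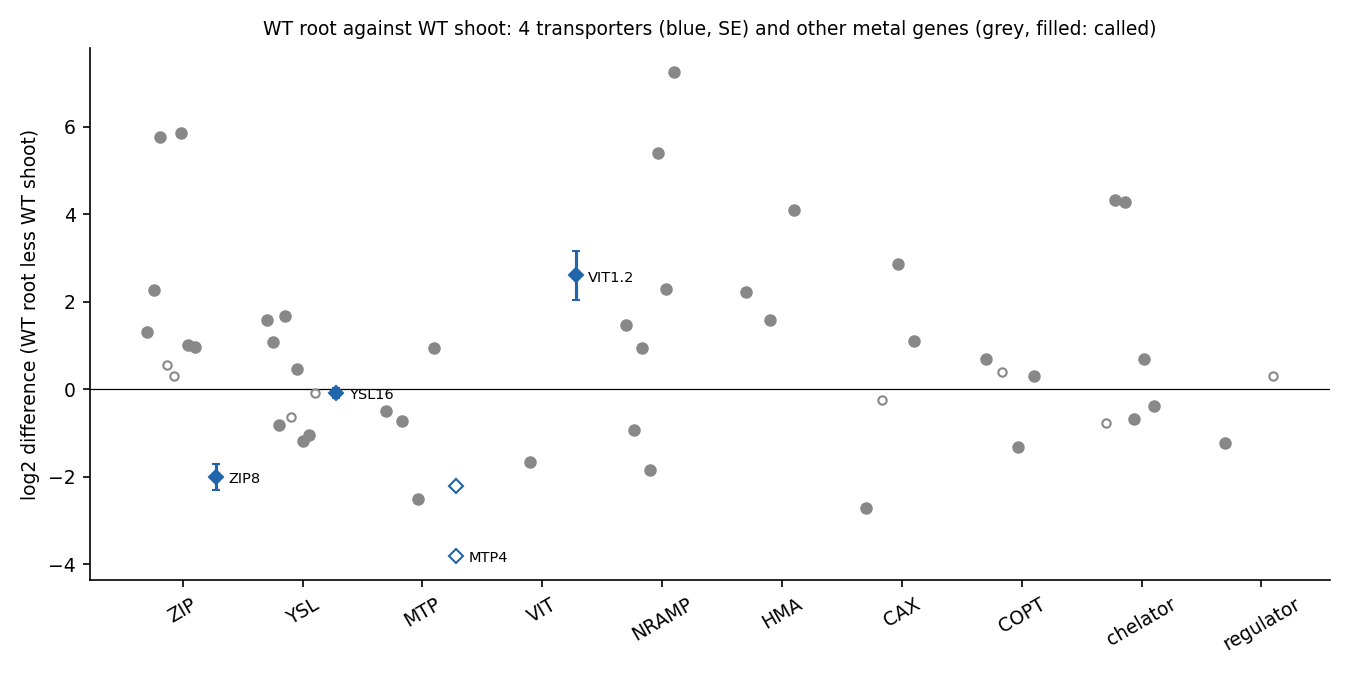
Log2 difference of WT root less WT shoot for the 5 probe sets (blue diamonds with SE; open and without SE for MTP4, whose root signals were under the filter) and for 48 other metal transport genes by family (grey; filled where called). VIT1.2 lies above 0, ZIP8 lies below it and YSL16 lies near 0, while 6 of 8 other ZIP genes are called higher in root. Among these 6, IRT2 passed the filter in root alone.

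The genes nearest in kind to the 4 transporters gave further values. These and the other metal genes below were listed with earlier results of these data known. Their adjusted p-values may therefore not be independent of that choice. In the table of rice genes, YSL9 is the next protein-coding gene beside YSL16, and like it belongs to the YSL family. YSL9 in shoot read 958, 1179 and 902 in WT, 1328, 1359 and 1402 in gi, and 499, 403 and 463 in pho2, with no overlap between the groups. YSL9 fell in pho2 shoot (log2 change -1.12, SE 0.118, limma adjusted p = 3.06e-05). In gi shoot it rose by 0.43 (SE 0.118, limma adjusted p = 0.025), a call that ended in 7 of 18 alternatives. YSL16 was lower in pho2 shoot as well, and its gi shoot mean was below that of WT.

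VIT1.1, the other vacuolar iron transporter with a probe set, was higher in WT shoot than in WT root, the reverse of VIT1.2. Its mean was 734 ± 164 in WT root and 2318 ± 47.3 in WT shoot (log2 difference of root less shoot -1.66, limma adjusted p = 8.77e-09). That difference lies inside the range of the hybridisation controls (-4.84 to -0.85). In shoot VIT1.1 read 2263, 2346 and 2345 in WT, 3271, 3513 and 3046 in gi, and 1174, 1476 and 1500.4 in pho2. It rose in gi shoot by 0.49 (SE 0.099, limma adjusted p = 0.00469) and fell in pho2 shoot (-0.75, SE 0.099, limma adjusted p = 0.000159). The gi call ended with median centring (0.39) and the pho2 call after scaling to the hybridisation controls (-0.23). Among shoots, both VIT genes were highest in gi, while in pho2 shoot VIT1.1 lay below all WT arrays and VIT1.2 overlapped them.

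**Figure D4:**
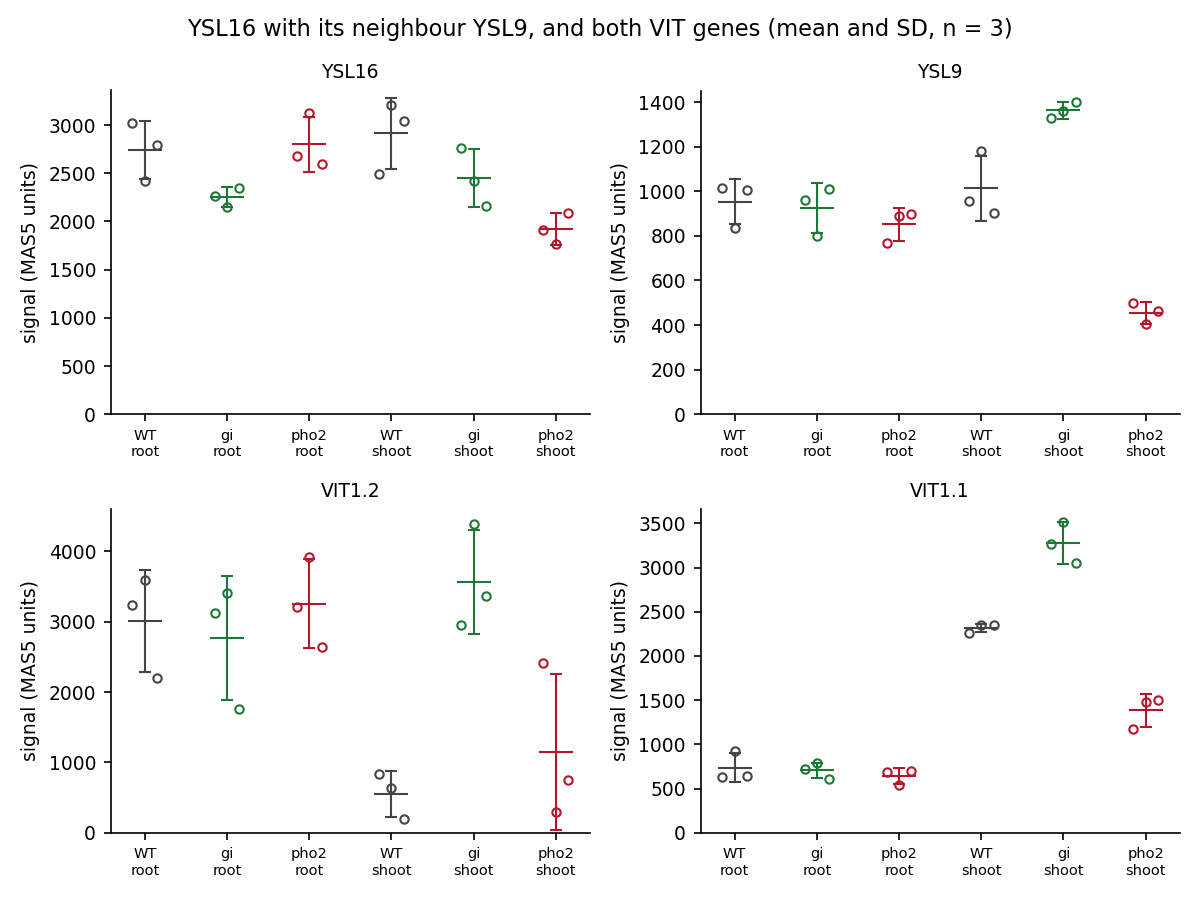
Signal (linear scale, from 0) of YSL16 beside its neighbour YSL9 and of VIT1.2 beside VIT1.1 in the 6 groups; points are arrays, the bar is the mean and the whiskers are the SD of 3 arrays. YSL9 and VIT1.1 are both higher in gi shoot and lower in pho2 shoot than in WT shoot.

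Beyond these, 54 other genes of metal transport, chelation and its regulation have a probe set, grouped here by family, of which 46 to 48 passed the filter in each fit. As the lists were made with earlier results known, the shares called below are a description and no test of the lists. In pho2 shoot, 22 of 46 were called, 8 higher and 14 lower (47.8%, against 28.6% of all probe sets). Their median log2 change was -0.14, against -0.007 over all probe sets tested. The split depends on the scale: after scaling to the hybridisation controls 21 were called, 15 higher and 6 lower.

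The ZIP genes tested in pho2 shoot were 7, of which 3 fell and 4 were not called. They were ZIP4, a zinc transporter (-1.24, SE 0.260, limma adjusted p = 0.00336), IRT1, an iron transporter (-1.02), and ZIP7 (-0.61). Of 10 YSL genes, 3 fell (YSL9, YSL14 with -0.67 and YSL6, a manganese transporter, with -0.62) and YSL12 rose (0.78). Of 7 NRAMP genes, 3 rose, NRAT1, an aluminium transporter (1.28), NRAMP6 (1.03) and NRAMP2 (0.68), and NRAMP4 fell (-1.58, SE 0.174, limma adjusted p = 4.31e-05), as did each of its 4 other probe sets (-0.63 to -1.56). NRAT1 was dim in WT shoot (63.2 ± 24.2), and its call ended in 9 of 17 alternatives.

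Copper transporter COPT1 fell from 10565 ± 575 to 4746 ± 169 signal units in pho2 shoot (-1.15, SE 0.091, limma adjusted p = 4.43e-06), the only one of 4 COPT genes called. Among 4 CAX genes, which exchange calcium and other cations for protons at the vacuole, CAX1b (-1.37) and CAX1a (-0.92) fell and CAX3 rose (0.46). Among 4 other MTP genes, MTP7 rose (0.94) and MTP1, a zinc transporter of the vacuole, fell (-0.23), the latter turning to 0.28 on the scale of the controls. HMA4, a copper pump, fell (-0.38, and 0.13 on that scale).

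NAS3, a nicotianamine synthase that makes the chelator YSL proteins carry, fell from 5999 ± 1962 to 1468 ± 423 (-2.01, SE 0.229, limma adjusted p = 5.39e-05). TOM1, which releases phytosiderophores, rose (0.46), and IDEF1, a regulator of iron genes, rose too (0.37, limma adjusted p = 0.0335). Calls that ended on the scale of the controls were those of CAX1a, HMA4, MTP1, VIT1.1, YSL14, YSL6, IRT1 and ZIP7, and 10 of the 22 calls held under every alternative.

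In gi shoot, 15 of 46 were called, 2 higher and 13 lower (32.6%, against 17.5% of all probe sets), with a median change of -0.11 against -0.01 over all. The split was 6 higher and 5 lower on the scale of the controls. NAAT1, an aminotransferase of phytosiderophore synthesis, fell furthest: it read 1183, 2942 and 3033 in WT shoot and 196, 112 and 159.7 on the gi arrays, a log2 change of -3.72 (SE 0.367, limma adjusted p = 4.48e-05).

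Of 7 ZIP genes, ZIP8 not being among them, 3 fell: ZIP2 (-1.22), IRT1 (-0.92) and ZIP7 (-0.89). CAX1a (-1.18) and CAX1b (-1.20) fell, as did NRAMP4 (-1.16) and NRAMP3, a manganese transporter (-0.54). Over all NRAMP4 probe sets the change ran from -1.16 to -0.39, and the smallest was not called (limma adjusted p = 0.186). COPT1 (-0.48), COPT7 (-0.33), HMA4 (-0.46), MTP1 (-0.29) and YSL6 (-0.42) fell by less. The only ones that rose were VIT1.1 and YSL9, with the values above. Leaving out WT shoot replicate 1 or 3 lowered the count from 15 to 8 or 7, and leaving out gi shoot replicate 1 or 2 lowered it to 9. Under every alternative, 5 of the 15 calls held, those of CAX1a, CAX1b, NRAMP4, ZIP7 and NAAT1.

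In pho2 root, 15 of 47 were called, 12 higher and 3 lower (31.9%, against 15.8% of all probe sets, 7.96% higher and 7.87% lower), with a median change of 0.15 against 0.02 over all. IRT1 rose most, from 838 ± 94.1 to 2861 ± 276 signal units (1.75, SE 0.152, limma adjusted p = 0.000153), followed by COPT2 (1.59), a copper transporter, and YSL13 (1.51). YSL12 (0.54), ZIP1 (0.35), HMA5 (0.54), HMA4 (0.41), COPT1 (0.22), NRAMP2 (0.45), NRAMP4 (0.27), NRAMP6 (0.28) and TOM2 (0.61) rose as well. Only 1 of 5 probe sets of NRAMP4 and 1 of a pair of TOM2 was called. Those that fell were ZIP5 (-0.55), ZIP7 (-0.31) and HMA2 (-0.67), which loads zinc for transport to the shoot. The count was 6 to 10 under several alternatives and without single arrays: without WT root replicates 1 and 2 it was 9 and 8, and without pho2 root replicates 1, 2 and 3 it was 9, 9 and 8. Only the calls of IRT1 and YSL13 held under every alternative.

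In gi root, 4 of 47 were called, 2 higher and 2 lower (8.51%, against 2.28% of all probe sets, 1.17% higher and 1.11% lower), with a median change of 0.05 against 0.03. IRT1 rose from 838 ± 94.1 to 2399.8 ± 535 (1.48, SE 0.152, limma adjusted p = 0.000945) and NRAMP4 rose (0.47), on 1 of its 5 probe sets, while ZIP5 (-0.44) and ZIP7 (-0.41) fell. These 4 were also called in pho2 root, in comparisons that share the WT arrays. Without WT root replicate 3 or gi root replicate 2 the count was 2, and on the scale of the controls only IRT1 was called.

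**Figure D5:**
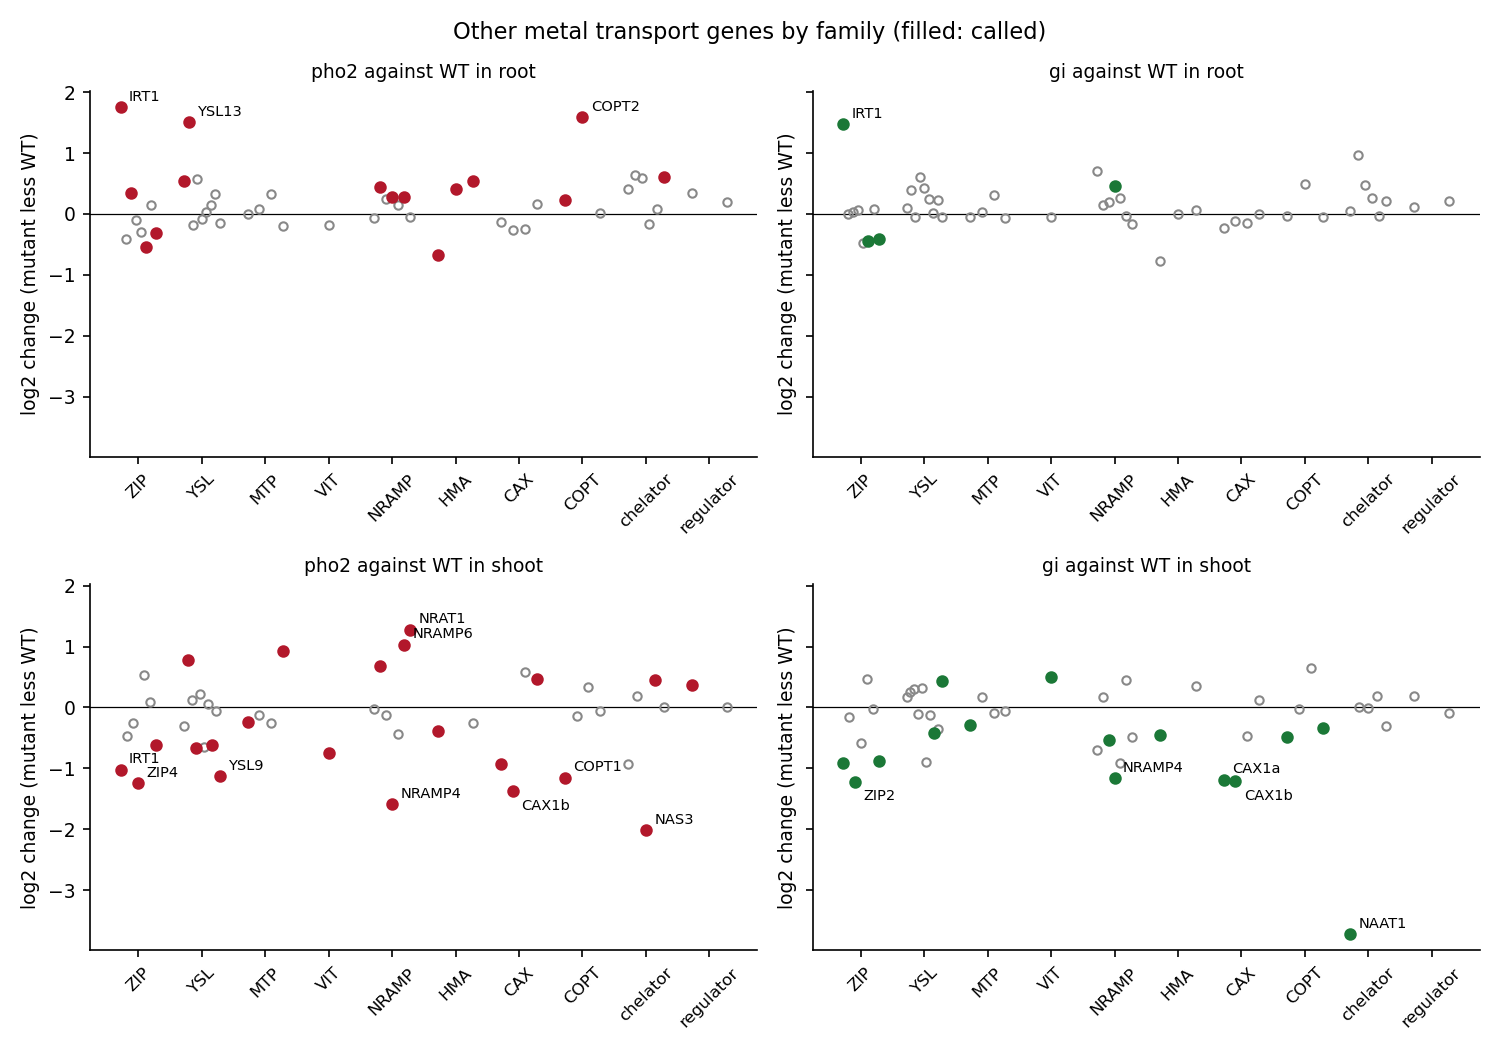
Log2 change of each mutant against WT for the 46 or 47 other metal transport genes tested in each tissue, by family; filled points are called at a limma adjusted p under 0.05 and named where the change exceeds 1. IRT1 is above 0 in the roots and below 0 in the shoots of both mutants.

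Between WT root and WT shoot, 40 of 48 were called, 26 higher and 14 lower in root (83.3%, against 71.0% of all probe sets), with a median difference of 0.62 against 0.09. The split became 37 higher and 4 lower on the scale of the controls. ZIP8 was unlike the other ZIP genes here, of which 6 of 8 were higher in root and none of the 6 called was lower. Among the called genes, IRT2, HMA2 and NAS1 passed the filter in root alone, and COPT3 and YSL8 in shoot alone. Their direction was thus set by the filter, so nothing is read from their calls. IRT2 is among the 6 ZIP genes.

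The mutant's effect differed between root and shoot for 22 of 48 genes in pho2 (45.8%, against 29.0% of all probe sets) and for 8 of 48 in gi (16.7%, against 12.2%). These differences depend on the scale. Over all probe sets in pho2, 4853 were called higher and 5120 lower, but 928 and 9173 on the scale of the hybridisation controls. Their median moved from 0.007 to -0.46 in pho2 and from 0.05 to -0.22 in gi. IRT1 had the largest difference in pho2, 2.77 (SE 0.267, limma adjusted p = 1.51e-06), and NAAT1 in gi, 3.77 (SE 0.536, limma adjusted p = 0.000306).

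The patterns of the 4 transporters were compared with those of 2193 named genes, by Pearson's r over the 18 arrays, less the mean of their tissue. These arrays share groups, so r describes them and carries no p. YSL16 was most like ZIP4 (0.85), MSRA4 (0.82) and BFRP (0.82), and VIT1.2 was most like bHLH (0.92), CAD (0.90) and DAHPS2 (0.86), as the tables name them. ZIP8 was most like SNRK1B (0.86), NAAT1 (0.84) and BSL2 (0.84). The brighter MTP4 probe set was most like ADF-7 (0.94), TUB6 (0.92) and TPC1 (0.89). MTP4 passed the filter through the shoot arrays alone, and its root signals lay below the array medians. Its r thus mixes dim root values with the shoot change on which it was chosen.

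Between the 4 transporters, over the same arrays, r was 0.61 for YSL16 with the brighter MTP4 probe set and -0.56 for VIT1.2 with ZIP8. It lay between -0.10 and 0.29 for VIT1.2 with YSL16, for ZIP8 with YSL16 and for the brighter MTP4 probe set with VIT1.2 and ZIP8. The limit given above for the r of MTP4 applies here too.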

How the data were processed

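The authors deposited intensity values (signal, linear scale) for every probe set of each array. The submitters' processing notes name MAS5, with its version and settings not given in the sources used here. Per the labels' protocols, RNA was extracted with a Qiagen kit and biotinylated cRNA was hybridised to Affymetrix arrays. Detection calls were not used here. The trimmed mean of every array was 500.1, 0 pairs of arrays were identical, and every sample's column was used.

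Of 57381 probe sets, 123 controls were left out, which leaves 57258. The platform annotation and a RefSeq-based table of rice genes gave 1 gene for 22436 probe sets and several for 95, which were not named. The metal lists name 69 genes in these tables, of which 58 have a probe set (the 4 transporters and 54 others) and 11 have none. A gene with several probe sets counts by the brightest.

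Values were used as log2(signal + 16). The 9 arrays of a tissue were fitted in limma 3.58.1 (R 4.3.3) with 3 group means, lmFit and eBayes with an intensity trend. Comparisons between tissues came from all 18 arrays with 6 group means. Probe sets with a mean under the 40th percentile were left out, 34355 were tested two-sided, and the Benjamini-Hochberg adjustment ran over all of them (call: adjusted p under 0.05). Levels are means ± SD, n = 3. The number of arrays limits the precision. The script was tested on simulated data.

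The 4 genes and the lists were chosen with earlier results of these data known. Named are all probe sets of the 4 genes, GI, up to 4 called genes of each family and mutant contrast with the smallest p, and the 3 genes most like each transporter. Genes whose mutant effect differed between tissues are named as well. The rule also held the brightest gene of each family in WT root and shoot, which is not reported, as levels of different probe sets are not comparable. Alternatives were quantile normalization, median centring, pseudocounts of 1 and 64, no filter and one at the 60th percentile, array weights, no intensity trend, replicate number as a block, other sets of arrays, each array left out and, added after seeing the data, scaling to the hybridisation controls. A planned search of promoter motifs was not run, as no promoter sequences were used here.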

Additional observations from a re-analysis of the deposited data

Results flagged for a closer look

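The effect of a mutant differed between root and shoot for the following transcripts other than MTP4, by a test of the difference in limma. Values are the log2 change in root less that in shoot. On the scale of the hybridisation controls, the median of this value over all probe sets was -0.46 in pho2 and -0.22 in gi. Differences near that size therefore depend on the scale. Values for the 4 chosen transporters are a description only: YSL16 0.62 in pho2 and VIT1.2 -3.01 in gi. For MTP4 in pho2 the fit over all arrays gave 2.12 and 1.08 on its brighter and dimmer probe sets, but its root signals lay under the filter, so these values hold no measured root change.

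In pho2, the difference was positive for IRT1 (2.77), NRAMP4 (1.85), NAS3 (1.85), COPT2 (1.73), YSL13 (1.39), COPT1 (1.37), CAX1b (1.12), YSL9 (0.97), ZIP4 (0.94), ZIP1 (0.81), CAX1a (0.79), HMA4 (0.79), YSL6 (0.77), TOM2 (0.60), MTP5 (0.59), VIT1.1 (0.57) and YSL14 (0.49). The other TOM2 probe set changed by -0.02 in pho2 root and -0.12 in pho2 shoot. The difference was negative for NRAT1 (-1.33), which was dim in shoot, MTP7 (-1.13), CAX2 (-0.83), NRAMP6 (-0.76) and TOM1 (-0.37). MTP5 and CAX2 were not called against WT in either tissue.

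In gi, the difference was positive for NAAT1 (3.77), IRT1 (2.40), NRAMP4 (1.63), CAX1b (1.09), CAX1a (0.95), NRAMP3 (0.74), HMA4 (0.46) and COPT1 (0.44). These comparisons share the WT arrays with those of pho2.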

How the results depend on the processing

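The count of metal genes called in pho2 root (15) was 7 with median centring, 9 with no intensity trend, 6 on the scale of the hybridisation controls, 7 in the fit of all 18 arrays and 8 to 10 with 1 array left out. In gi root (4) it was 1 on that scale, 1 with all 18 arrays and 2 to 6 with 1 array left out. In gi shoot (15) it was 7 to 16 with 1 array left out, the lowest being without WT shoot replicate 3. In pho2 shoot (22) it stayed within 1.5 times under all 19 other settings (16 to 20 with 1 array left out), and for WT root against WT shoot (40) it was 37 to 40 with 1 array left out. The difference of YSL16 between WT root and WT shoot (-0.08) turned to 1.17 on the scale of the controls and ran from -0.19 to 0.00351 with 1 array left out, turning sign without WT root replicate 2. HMA4 (0.13) and MTP1 (0.28) in pho2 shoot turned sign on the scale of the controls. The cause was not tested. Of 56 calls of named metal genes against WT, 18 held under every alternative and 38 ended under at least 1.

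Replicate numbers did not pair the arrays: the correlation of same-numbered deviations lay between -0.11 and 0.11 in root, and between -0.06 and 0.03 in shoot, and 2 of 9 root and 0 of 9 shoot arrays correlated best with their own number. With the replicate number as a block, the counts were 15 in pho2 root, 3 in gi root, 22 in pho2 shoot, 15 in gi shoot and 38 for WT root against WT shoot, and the YSL16 difference was -0.04. Dim probe sets such as MTP4 in root limit what could be measured.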
